A study of Mus musculus with 6 samples.

Results

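IL-2 and the related cytokines that signal through the common gamma chain were followed at the level of mRNA in Tregs with and without Zfp335, using 10 genes chosen by symbol from a table of 13709 gene rows. These were 5 receptor chain genes (Il2ra, Il2rb, Il2rg, Il4ra and Il21r), 2 Janus kinase genes (Jak1 and Jak3) and 3 STAT genes (Stat5a, Stat5b and Stat6). Each of the 10 matched 1 row, and all 10 were among the 13594 genes that passed the filter on low counts.

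RNA-Seq had been run on CD4+YFP+CD25+ Tregs of C57BL/6 mice at 2 weeks of age, an age that the labels leave out and the methods give, with 3 samples per genotype. WT mice were Foxp3Cre, and KO mice were Foxp3Cre Zfp335fl/fl, so both groups carried YFP and Cre placed behind the Foxp3 coding sequence, and only KO mice carried floxed Zfp335 alleles. Cre was therefore made where Foxp3 was expressed, and the sort kept cells that made YFP and displayed CD25, the protein product of Il2ra. Lymph nodes and spleen are both named as the source of the cells in the labels. Whether a sample was 1 mouse or a pool was not stated, so p-values set differences against the spread between these samples only.

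IL-2 is bound by CD25, by the IL-2 receptor beta chain (Il2rb) and by the common gamma chain (Il2rg), and the last is shared with the receptors for IL-4, IL-7, IL-9, IL-15 and IL-21. Jak1 and Jak3, which sit on these chains, phosphorylate STAT proteins, mainly Stat5a and Stat5b after IL-2 and Stat6 after IL-4. Tregs make little IL-2 themselves, and depend on IL-2 from other cells to maintain Foxp3 and to survive.

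Total counts lay between 32032631 and 40728419 per sample, and levels are given in CPM, which sets each count against a library total scaled by TMM, with mean ± SD over 3 samples. Zfp335, the targeted gene, was at 94.3 to 103 CPM in WT and at 37.0 to 40.2 CPM in KO (log2 fold change -1.37, edgeR adjusted p = 2.14e-05). Pcif1, on the opposite strand, shares 23.34% of the exon length of Zfp335, and the strand setting was not given, so the counts of Zfp335 are uncertain. WT replicate 3 stood apart from the other WT samples: on the second principal component, with 16.6% of the variance, it lay at -36 against 17.7 and 19.5. Results whose call or direction this sample decided are therefore also given without it, and in that fit 13.6% of all genes were called higher and 13.2% lower. Of the cell type markers, the T cell and Treg genes (9 of 9 in the table) summed to 4938 to 5985 CPM in WT and 4004 to 4131 CPM in KO. The CD8 T and NK cell genes (5 of 5) summed to 12.9 to 19.0 and 27.0 to 28.9 CPM, and the B cell genes (6 of 6) to 18.7 to 20.7 and 12.8 to 13.7 CPM. The myeloid and dendritic cell genes (8 of 9) summed to 8.89 to 20.3 and 43.6 to 50.2 CPM, with S100a8 and S100a9 at 0 in every WT sample, and the red cell genes (4 of 5) to 16.3 to 69.2 and 29.3 to 35.5 CPM. In single-cell RNA-Seq of YFP+ Tregs from younger mice, the study reported high S100a8 and S100a9 in a Treg cluster that accumulated in KO. The 8 proliferation genes summed to 702 to 1319 CPM in WT, lowest in WT replicate 3, and to 3488 to 3648 CPM in KO. The part of these other cells and of cell division in the results on the 10 genes was not tested, and in bulk RNA fewer cells of a type and less RNA per cell cannot be told apart.

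Genes were called in edgeR if they passed 3 cutoffs together, namely a fold change over 1.5 in either direction, a p below 0.05, and an adjusted p below 0.1 over all genes tested. By this rule Il2rb was higher in KO Tregs, at 1.51 times its WT level, and the other 9 genes were not called. Thus 1 of 10 genes was called higher, against 11.9% of all genes tested, and 0 of 10 was called lower, against 12.5% (24.4% in either direction). Without the fold cutoff, 3 genes had an adjusted p under 0.1 and a higher level in KO (Il2rb, Il2rg and Il4ra) and 1 had a lower level (Stat5b), which makes 4 of 10 against 47% of all genes, with 22.7% in the higher and 24.3% in the lower direction. The KO and WT samples did not overlap for 6 of the 10 genes, with KO above WT for the same 3 receptor genes and below WT for Jak1, Stat5a and Stat5b. Among all genes tested the groups did not overlap for 53.8%, with KO above WT for 26.2% and below WT for 27.6%. The median log2 fold change was -0.11 over the 10 genes and -0.04 over all genes.

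**Figure D1:**
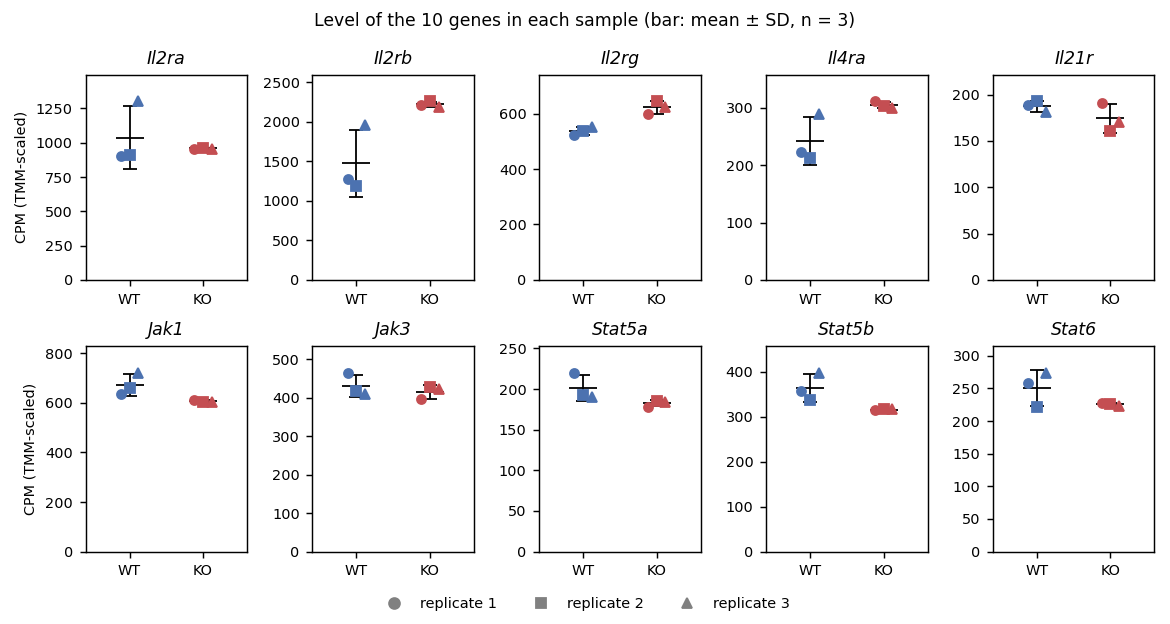
Level of the 10 genes in each of the 6 samples (y axis, CPM after TMM scaling, from 0; x axis, genotype), with WT in blue, KO in red, a marker shape for each replicate number, and bars for mean ± SD (n = 3). Il2rb lay between 1192 and 1961 CPM in WT and between 2193 and 2259 CPM in KO, and WT replicate 3 was the highest WT sample for Il2ra, Il2rb and Il4ra.

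Among the receptor genes, Il2ra (chr2:11642807-11693193, mm10, as all positions here) encodes CD25, the alpha chain that gives the IL-2 receptor its high affinity. In the order of the replicate numbers, as everywhere below, WT samples had 903, 909 and 1302 CPM and KO samples 954, 964 and 957 CPM. The KO samples all lay between the lower pair of WT samples and WT replicate 3, and the means were 1038 ± 229 CPM and 958 ± 5.32 CPM. The log2 fold change was -0.12 (SE 0.14, 95% interval -0.44 to 0.21, edgeR adjusted p = 0.558), an interval that spans 0 and values on both sides of it. Without WT replicate 3 it was 0.08 (-0.02 to 0.18, adjusted p = 0.184), so its direction turned on that sample, and with offsets for GC content and length it was -0.23 (adjusted p = 0.203). Cells were sorted on CD25, so both groups were selected for the protein of this gene.

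Il2rb (chr15:78479256-78495271) encodes the beta chain, which carries the signal of IL-2 and of IL-15. It was measured at 1275, 1192 and 1961 CPM in WT and at 2213, 2259 and 2193 CPM in KO. Every KO sample lay above every WT sample, with WT replicate 3 much nearer to the KO samples than the other WT samples were. The means were 1476 ± 422 CPM and 2222 ± 33.7 CPM, and the log2 fold change was 0.59 (SE 0.18, interval 0.18 to 0.997, edgeR adjusted p = 0.0309). The fold change of 1.51 stood just past the cutoff of 1.5, and the call was lost without WT replicate 1 (0.50), without WT replicate 2 (0.45) and without KO replicate 2 (0.58), where the adjusted p stayed between 0.0884 and 0.0945. With WT replicate 3 left out, it was 0.85 (SE 0.05, interval 0.74 to 0.95, adjusted p = 3.3e-09). When tested against a fold change of 1.5 itself, the difference did not pass (adjusted p = 0.859).

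Il2rg (chrX:101264378-101268255) encodes the common gamma chain that all receptors of the family share. Levels were 523, 536 and 553 CPM in WT and 598, 644 and 625 CPM in KO, and the groups did not overlap. The means of 537 ± 15.1 CPM and 622 ± 23.2 CPM differed by a log2 fold change of 0.21 (SE 0.06, interval 0.06 to 0.36, edgeR adjusted p = 0.0323), below the fold cutoff. With offsets for GC content and length this value was 0.04 (adjusted p = 0.617), and it was 0.23 (adjusted p = 0.00159) without WT replicate 3. The gene model Gm20489 lies on the same strand and shares 30.5% of the exon length of Il2rg, so the counts of Il2rg are uncertain.

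Il4ra (chr7:125552120-125579474) encodes the chain that binds IL-4 and pairs with the common gamma chain or with the chain made from Il13ra1. The WT samples were at 223, 213 and 289 CPM and the KO samples at 311, 303 and 300 CPM. KO lay above WT throughout, by a small margin over WT replicate 3, and the means were 242 ± 41.6 CPM and 305 ± 5.90 CPM. The log2 fold change was 0.34 (SE 0.12, interval 0.07 to 0.61, edgeR adjusted p = 0.054), below the fold cutoff. It was 0.48 (adjusted p = 2.81e-06) without WT replicate 3, and the adjusted p was 0.124 to 0.151 when any one of the other samples was left out. An antisense gene model, Gm44876, covers 9.51% of its exon length.

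Il21r (chr7:125603429-125633570), just downstream of Il4ra on the same strand, encodes the receptor chain for IL-21. It stood at 188, 193 and 181 CPM in WT and at 191, 161 and 170 CPM in KO. The groups overlapped through KO replicate 1, and the log2 fold change was -0.11 (SE 0.08, interval -0.29 to 0.08, edgeR adjusted p = 0.342), with values from -0.18 to -0.05 over all settings tried. Il21r and Il4ra are neighbors in the genome, and their point estimates had opposite signs.

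**Figure D2:**
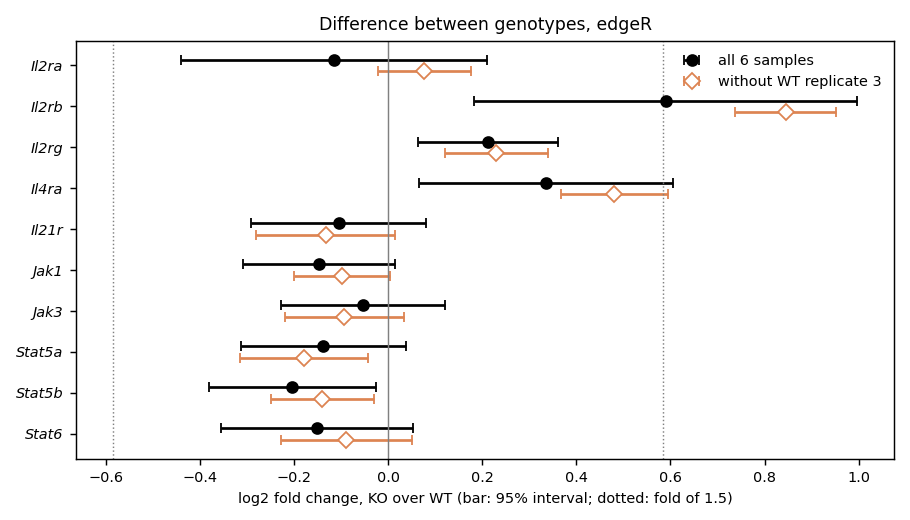
Log2 fold change of KO over WT for the 10 genes (x axis) with 95% intervals from edgeR, for all 6 samples (black circles) and without WT replicate 3 (open diamonds), and dotted lines at a fold change of 1.5 in each direction. Il2rb is the one gene past a dotted line with all samples (0.59), and the intervals are narrower without WT replicate 3.

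Neither kinase gene was called. Jak1 (chr4:101152367-101265282) encodes the kinase bound to the cytokine-specific chains such as Il2rb and Il4ra. It was at 637, 659 and 721 CPM in WT and at 613, 603 and 606 CPM in KO, so the groups did not overlap. The log2 fold change was -0.15 (SE 0.07, interval -0.31 to 0.01, edgeR adjusted p = 0.133). With offsets for GC content and length it was -0.24 (adjusted p = 0.0205).

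Jak3 (chr8:71676296-71690575) encodes the kinase bound to the common gamma chain. Its WT samples were at 465, 419 and 409 CPM and its KO samples at 396, 429 and 422 CPM. The groups overlapped, and the log2 fold change was -0.05 (SE 0.08, interval -0.23 to 0.12, edgeR adjusted p = 0.62). The sign was positive with the offsets for GC content and length (0.04) and without WT replicate 1 (0.01). Insl3 on the same strand shares 7.55% of the exon length of Jak3 and was itself counted at 10.7 to 24.0 CPM, so the counts of Jak3 are uncertain to that extent.

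Stat5a and Stat5b, which encode the closely related STAT proteins activated by IL-2, lie next to each other on chromosome 11 in opposite orientation (Stat5a, chr11:100859351-100885169; Stat5b, chr11:100780731-100850724). Their coding sequences, of 2391 and 2358 bases in the GENCODE M21 annotation of GRCm38 (mm10), share an identical run of 324 bases, from coding base 571 to 894 in exons 6 to 8. The bases at both ends of the run are shown because reads that fall between them cannot be given to one gene or the other. Capitals mark the first base that differs on each side, written as the Stat5a base, the position counted from 1 at the start of the coding sequence, and the Stat5b base, which gives C570A before the run and C895T after it.

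Stat5a, coding bases 550 to 590: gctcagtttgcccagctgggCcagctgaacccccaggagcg
Stat5b, coding bases 550 to 590: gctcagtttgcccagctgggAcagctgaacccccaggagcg
Stat5a, coding bases 875 to 915: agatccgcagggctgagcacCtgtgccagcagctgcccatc
Stat5b, coding bases 875 to 915: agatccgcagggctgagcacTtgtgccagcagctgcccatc

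Of all stretches of 50 bases in the transcripts of Stat5a, 8.21% also occur in Stat5b, and of those of Stat5b, 10.98% also occur in Stat5a. The levels of both genes are uncertain to that extent, since 1 alignment was kept per read and the read length was not given in the sources used here.

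Stat5b was at 356, 338 and 397 CPM in WT and at 315, 316 and 316 CPM in KO. All KO samples lay below all WT samples, and the means were 364 ± 30.3 CPM and 316 ± 0.608 CPM. The log2 fold change of -0.20 (SE 0.08, interval -0.38 to -0.03, edgeR adjusted p = 0.0685) was under the fold cutoff. The adjusted p was 0.0317 to 0.0955 without any one WT sample and 0.175 to 0.184 without any one KO sample.

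Stat5a was at 220, 193 and 191 CPM in WT and at 178, 186 and 185 CPM in KO, without overlap between the groups. The log2 fold change was -0.14 (SE 0.08, interval -0.31 to 0.04, edgeR adjusted p = 0.189). It was -0.07 without WT replicate 1, the highest WT sample for this gene, and -0.18 (adjusted p = 0.0274) without WT replicate 3.

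Stat6 (chr10:127642986-127660957), which encodes the STAT protein activated by IL-4 and IL-13, was at 258, 221 and 274 CPM in WT and at 228, 227 and 223 CPM in KO. WT replicate 2 lay below the KO samples, the other WT samples above them. The log2 fold change was -0.15 (SE 0.09, interval -0.36 to 0.05, edgeR adjusted p = 0.213), and it was -0.09 (adjusted p = 0.271) without WT replicate 3 and -0.24 (adjusted p = 0.0377) without WT replicate 2.

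The spread within WT differed from gene to gene. WT replicate 3 exceeded the mean of the other WT samples by a log2 difference of 0.67 for Il2rb, 0.52 for Il2ra and 0.41 for Il4ra. For the other 7 genes it differed by -0.11 (Jak3 and Stat5a) to 0.19 (Stat5b and Stat6). The coefficient of variation in WT was 28.6% for Il2rb and 22.0% for Il2ra, against 1.51% and 0.555% in KO. For Il21r, in contrast, it was 3.15% in WT and 8.94% in KO.

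To compare levels between genes, CPM were divided by the exon length in kb. In WT the order ran from Il2rb (344 ± 98.5 CPM per kb), Il2rg (225 ± 6.34) and Il2ra (182 ± 40.0) through Jak1 (93.0 ± 6.01), Jak3 (80.5 ± 5.54), Stat5b (65.6 ± 5.47), Stat6 (57.0 ± 6.16) and Il21r (56.4 ± 1.78) to Il4ra (40.2 ± 6.93) and Stat5a (28.2 ± 2.27). The receptor genes of IL-2 thus stood above the kinase and STAT genes in these cells. Of the neighbors in this order, Il2rg and Il2ra, Stat5b and Stat6, and Stat6 and Il21r had overlapping ranges over the WT samples. In KO the order was led by the same 3 genes, with Il2rb at 518 ± 7.85, Il2rg at 261 ± 9.72 and Il2ra at 168 ± 0.931 CPM per kb, each above the next in every sample. Lower in the order came Stat5b (57.0 ± 0.110), Il21r (52.4 ± 4.69), Stat6 (51.3 ± 0.561) and Il4ra (50.8 ± 0.983). Among these genes, neighbors in the order had overlapping ranges over the KO samples.

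**Figure D3:**
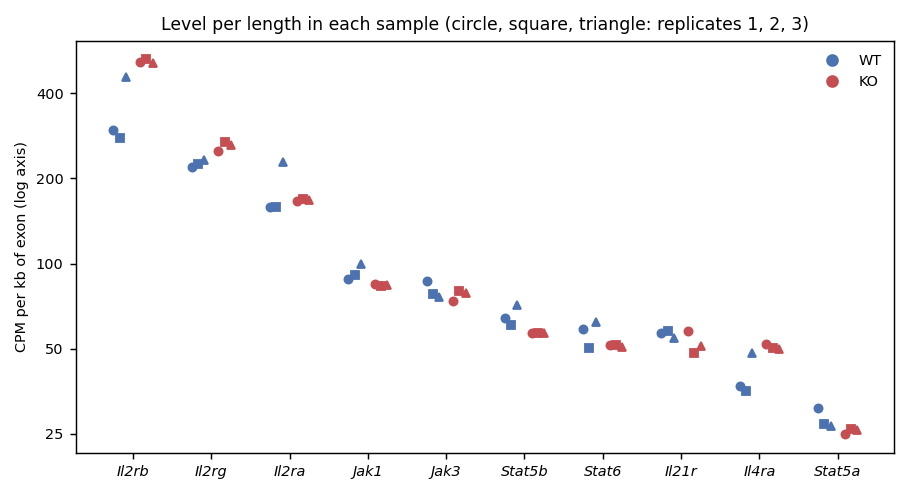
Level per length of the 10 genes in each sample (y axis, CPM per kb of exon on a log axis; x axis, genes in the order of their WT mean), with WT in blue and KO in red and a marker shape for each replicate. The 3 chains of the IL-2 receptor lie between 158 and 527 CPM per kb in all samples, and Stat5a lies lowest, with means of 28.2 in WT and 25.6 in KO.

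Ratios between genes within a sample do not depend on the scaling of libraries, and 7 were compared by a two-sided exact permutation test over the 6 samples, whose smallest possible p is 0.1. The ratio of Il2ra to Il2rb, the chain that captures IL-2 over the chain that signals, was 0.532, 0.572 and 0.498 in WT and 0.324, 0.321 and 0.328 in KO. All KO samples lay below all WT samples, WT replicate 3 included, and the ratio in KO was 0.607 times that in WT (log2 difference -0.72, exact permutation p = 0.1, adjusted p = 0.35). For this pair WT replicate 3 was near the other WT samples, although it was the highest of them for both genes taken alone.

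The ratio of Il21r to Il2rg was 0.259, 0.258 and 0.235 in WT and 0.230, 0.179 and 0.196 in KO, also without overlap (log2 difference -0.32, exact permutation p = 0.1, adjusted p = 0.35). Ratios were not computed with offsets for GC content and length. With these offsets the edgeR log2 fold change was 0.04 for Il2rg, against 0.21 without them, and -0.14 for Il21r, against -0.11. Il2rb to Il2rg was 1.36, 1.24 and 1.98 in WT and 2.06, 1.95 and 1.96 in KO, where WT replicate 3 fell among the KO samples (log2 difference 0.41, exact permutation p = 0.3, adjusted p = 0.56). Without WT replicate 3 the difference was 0.62 (exact permutation p = 0.2). The remaining ratios overlapped between genotypes, with log2 differences of 0.14 for Il4ra to Il2rg, -0.09 for Jak1 to Jak3, 0.07 for Stat5a to Stat5b and 0.06 for Stat6 to Stat5b (exact permutation p = 0.4 to 0.8). Without WT replicate 3 the difference for Stat5a to Stat5b was -0.04. With 3 samples against 3 this test cannot reach a p of 0.05 for any ratio.

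**Figure D4:**
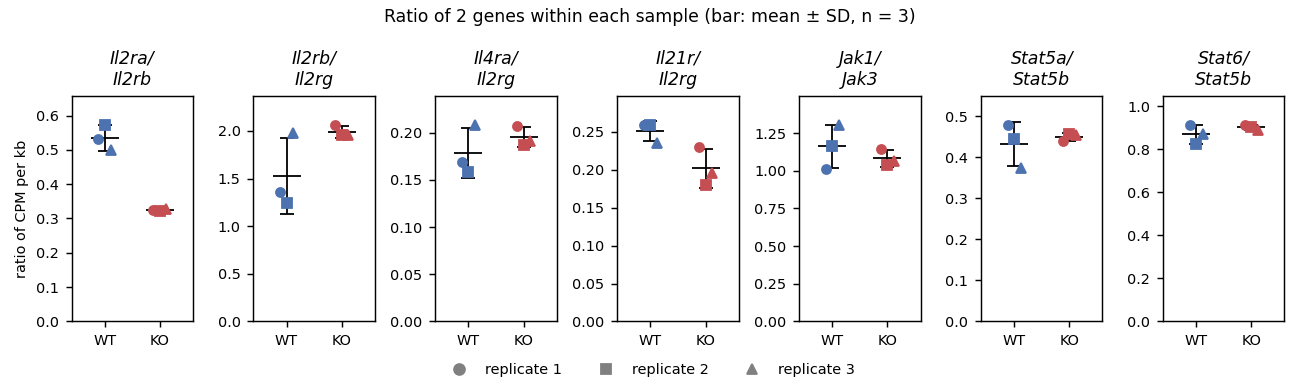
Ratio of the levels per length of gene pairs within each sample (y axis, ratio, from 0; x axis, genotype), with WT in blue, KO in red, a marker shape for each replicate number and bars for mean ± SD (n = 3). The ratio of Il2ra to Il2rb lies between 0.498 and 0.572 in WT and between 0.321 and 0.328 in KO, and the groups also separate for Il21r to Il2rg.

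Other cytokine and receptor genes of the family included some with far larger fold changes than those of the 10 genes. Of 12 listed, 10 were in the table, of which 4 were called higher, 1 was called lower and 5 were not called (11.9% and 12.5% of all genes tested). Without WT replicate 3, 7 were called higher and 1 lower, Il2, Il7r and Il13ra1 being added, and the median log2 fold change of the list went from 0.78 to 1.42. Il13, a cytokine of type 2 responses that uses Il4ra, rose from 0.0815, 0.426 and 0.210 CPM in WT to 119, 133 and 130 CPM in KO (edgeR log2 fold change 9.07, SE 0.28, adjusted p = 2.04e-06), and rested on 3 to 14 counts per sample in WT. Il4, the cytokine that binds the Il4ra chain, rose from 0.270 to 0.408 CPM in WT to 7.72 to 9.61 CPM in KO (4.66, adjusted p = 2.48e-05). Il21, the ligand of the Il21r chain, rose from 0.245 to 1.32 CPM to 6.87 to 7.97 CPM (3.62, adjusted p = 0.00247). Of these 3 cytokine genes Il13 had the highest level in KO also per length, at 106 ± 6.08 CPM per kb against 7.05 ± 0.771 for Il4 and 1.43 ± 0.110 for Il21.

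Il2 itself was scarcely detected, at 4, 0 and 18 counts in WT and at 33, 28 and 44 counts in KO. The fitted log2 fold change of 2.12 (SE 0.96, interval -0.11 to 4.35, edgeR adjusted p = 0.12) was not called, whereas DESeq2 (2.16, adjusted p = 0.0719), the fits with the replicate number as a block (2.69, adjusted p = 0.0738, and 2.49, adjusted p = 0.0918, with offsets for GC content and length) and the fit without WT replicate 3 (3.98, adjusted p = 0.00207) passed. Il7 was at 0 to 0.462 CPM in WT and 0.324 to 0.539 CPM in KO (0.89, adjusted p = 0.491). Il9 and Il15 were not analyzed here.

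Of the private receptor chains, Il9r for IL-9 fell from 73.4, 67.5 and 33.2 CPM in WT to 18.2, 16.8 and 20.2 CPM in KO (edgeR log2 fold change -1.66, SE 0.27, adjusted p = 0.00252), with WT replicate 3 the lowest WT sample. Il15ra for IL-15 rose from 13.4 to 14.3 CPM to 19.4 to 24.1 CPM (0.68, SE 0.12, adjusted p = 0.00296), and was under the fold cutoff with offsets for GC content and length (0.54). Il7r, the IL-7 receptor alpha chain and a marker of naive and memory T cells, was at 118, 123 and 563 CPM in WT and at 194, 210 and 201 CPM in KO. For this gene WT replicate 3 alone set the direction: the log2 fold change was -0.41 (SE 0.56, adjusted p = 0.602) with all samples and 0.74 (adjusted p = 9.69e-08) without it. Crlf2, a receptor chain for TSLP that resembles the common gamma chain and pairs with Il7r, was at 35.6 to 46.8 CPM in WT and 37.3 to 40.5 CPM in KO (-0.06, adjusted p = 0.724). Il13ra1 was at 7, 2 and 36 counts in WT and at 14, 25 and 20 counts in KO (0.24, adjusted p = 0.855), and was called without WT replicate 3 (2.01, adjusted p = 0.0472).

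The Jak and STAT genes outside the list of 10 serve mainly interferons, IL-6, IL-12 and related cytokines. Of 5 analyzed here, 2 were called higher and 0 lower, against 11.9% and 12.5% of all genes tested. Without WT replicate 3 the numbers were 3 and 0, against 13.6% and 13.2%. Jak2 rose from 152, 167 and 206 CPM in WT to 326, 326 and 324 CPM in KO (edgeR log2 fold change 0.89, SE 0.11, adjusted p = 0.000721). Stat4, the STAT gene of IL-12 responses, rose from 59.5, 63.2 and 75.9 CPM to 149, 145 and 154 CPM (1.17, SE 0.10, adjusted p = 0.000138). Jak2 and Stat4 were thus called higher, while each of the Jak and STAT genes among the 10 had a negative point estimate with all samples, apart from the settings given above under which that of Jak3 was positive.

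Stat2, of interferon signaling, was at 110 to 207 CPM in WT and 199 to 206 CPM in KO (edgeR log2 fold change 0.50, adjusted p = 0.121), and was called without WT replicate 3 (0.85, adjusted p = 1.13e-08). Stat3 (0.31, adjusted p = 0.0287) and Tyk2 (-0.39, adjusted p = 0.00978) were under the fold cutoff, and their groups did not overlap. Stat4 shares 26.68% of its exon length with the gene model Gm28177, so its counts are uncertain.

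**Figure D5:**
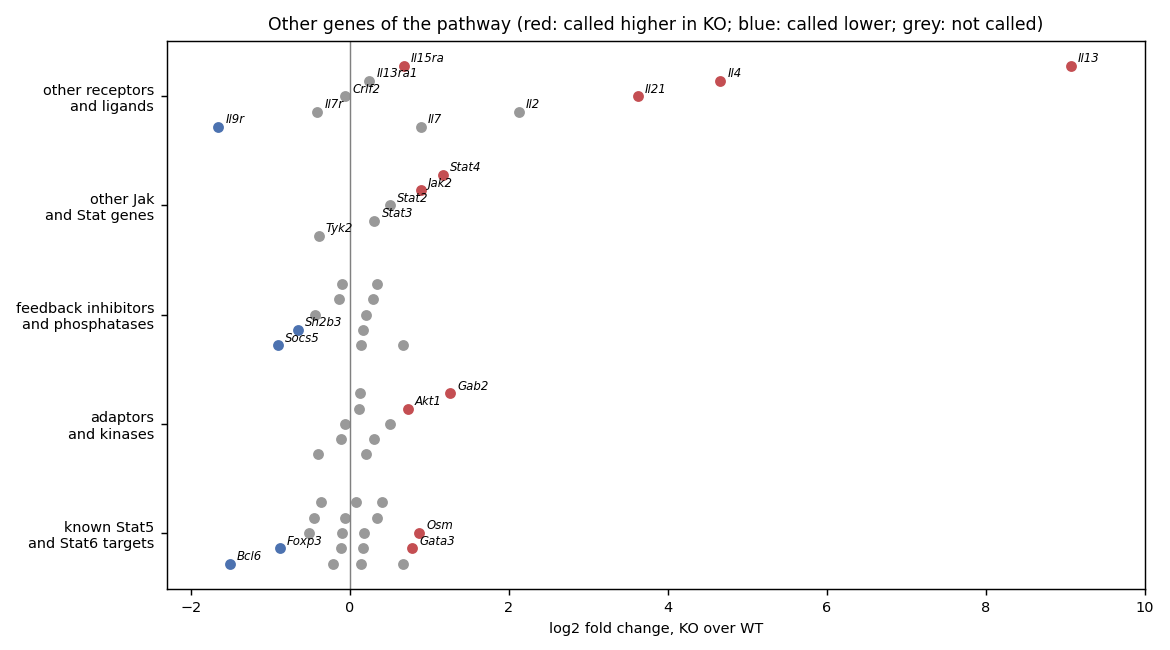
Log2 fold change of KO over WT (x axis) for each tested gene of 5 lists of other genes of the pathway (rows), with genes called higher in red, called lower in blue and not called in grey. Il13, Il4 and Il21 stand farthest to the right (9.07, 4.66 and 3.62), Il9r (-1.66) and Bcl6 (-1.51) farthest to the left.

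Genes listed as feedback inhibitors or phosphatases of the pathway were called lower in 2 of 11 cases and higher in 0, against 12.5% and 11.9% of all genes tested. Without WT replicate 3 the same numbers were 2 and 1, since Socs3, at 107 and 109 CPM in the other WT samples and 238 to 249 CPM in KO, was then called higher (1.17, adjusted p = 4.03e-10). Socs5, of the SOCS family, fell from 18.6, 19.7 and 24.7 CPM in WT to 10.02, 12.3 and 11.2 CPM in KO (edgeR log2 fold change -0.91, SE 0.15, adjusted p = 0.00224). Sh2b3, an adaptor that dampens Jak signaling and is also called Lnk, fell from 101, 91.9 and 78.8 CPM to 55.8, 58.4 and 58.4 CPM (-0.65, SE 0.10, adjusted p = 0.00162), and was under the fold cutoff without WT replicate 1 (-0.57). The median log2 fold change of this list was 0.14.

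Adaptors and kinases downstream of the receptors were called higher in 2 of 10 cases and lower in 0, against 11.9% and 12.5% of all genes tested. Without WT replicate 3 they were called higher in 3 cases, with Irs2 added (1.46, adjusted p = 2.57e-09). Akt1, a kinase of the PI3K branch, rose from 194, 191 and 167 CPM to 308, 305 and 301 CPM (edgeR log2 fold change 0.73, SE 0.08, adjusted p = 0.000376). Gab2, an adaptor of the same branch, was low, at 0.733, 0.883 and 1.80 CPM in WT and 3.86, 1.94 and 2.41 CPM in KO, and its call (1.26, adjusted p = 0.0594) was lost without WT replicate 1, WT replicate 2, KO replicate 1 or KO replicate 3 (adjusted p = 0.113 to 0.223). The median over the list was 0.17.

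Of 18 genes listed as known targets of Stat5 or Stat6, 4 of which were also listed as feedback inhibitors and 2 of which (Il2ra and Il4ra) are among the 10, 2 were called higher and 2 lower, against 11.9% and 12.5% of all genes tested. Gata3, the transcription factor of type 2 T cells, rose from 134, 141 and 151 CPM to 222, 255 and 255 CPM (edgeR log2 fold change 0.78, SE 0.08, adjusted p = 0.000385). Osm, a cytokine gene induced by STAT5, rose from 28.3 to 32.1 CPM to 54.7 to 56.4 CPM (0.87, SE 0.08, adjusted p = 0.000191). Bcl6, a repressor that is itself repressed by STAT5 in T cells, fell from 42.8, 46.6 and 22.3 CPM to 13.3, 13.9 and 11.9 CPM (-1.51, SE 0.26, adjusted p = 0.00288). Without the fold cutoff, 4 of the 18 were higher and 5 lower at adjusted p under 0.1, against 22.7% and 24.3% of all genes. Those under the fold cutoff were Bcl2 (-0.45, edgeR adjusted p = 0.00829), Ccnd2 (-0.37, adjusted p = 0.00299) and Lta (-0.51, adjusted p = 0.0025), all lower. Il4ra and Ccnd3 (0.41, edgeR adjusted p = 0.0109), also under it, were higher.

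Foxp3, the defining factor of Tregs, was at 738, 642 and 1190 CPM in WT and at 460, 472 and 463 CPM in KO. It was called lower (edgeR log2 fold change -0.88, SE 0.21, adjusted p = 0.0122), and stayed lower without WT replicate 3 at a size below the fold cutoff (-0.57, adjusted p = 1.27e-06). Exons of Flicr and Ccdc22 overlap those of Foxp3, and the Foxp3 locus was modified in both genotypes. The median log2 fold change over the 18 genes was 0.01 with all samples and 0.27 without WT replicate 3, where 4 were called higher, with Socs3 and Pim1 (0.69, adjusted p = 3.94e-08) added, and 1 lower.

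The promoters of the 10 genes were searched for the palindromes bound by STAT dimers on both strands. RefSeq windows of GRCm38.p6, from 250 bases before to 50 bases after a start site, were found for 9 of the 10 genes (11 windows), and none was found for Il2rb. The motif TTCNNNGAA, which STAT5 binds, was in 0 of the 11 windows and in 8.3% of all 32851 promoter windows. The same ends spaced by 4 bases, the form preferred by STAT6, were in 0 of 11 windows and in 6.95% of all. These letters were not in these windows, and sites elsewhere in the genes were not searched.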

How the data were processed

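Bulk RNA-Seq of 3 WT and 3 KO samples of sorted Tregs was analyzed. The authors deposited raw counts as whole numbers, with a row for each gene and a column for each of the 6 samples. The study's methods name SOAPnuke for filtering of reads, HISAT2 for alignment to mm10, where each read kept a single alignment, and StringTie for quantification. The annotation, the strand setting, the read length and the way whole counts were obtained are not given in the sources used here. No gene had fewer than 60 counts in all samples together, so the rarest genes were already left out of the table. A single alignment can move reads between near-identical genes, and counting without strand can move them between overlapping ones. Overlaps and lengths were taken from GENCODE M21 on GRCm38.

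Samples were grouped by the genotype in the labels. Counts were tested with edgeR 4.0.16 in R 4.3.3, using filterByExpr (minimum count 10), TMM scaling and the quasi-likelihood F-test over all 6 samples with no covariate. P-values are two-sided and adjusted by Benjamini-Hochberg over 13594 genes, and the cutoffs are those of the study. The SE is the size of the log2 fold change divided by the square root of F, and a 95% interval covers the spread between samples. At these depths 3 counts, the least that can be told from 0, correspond to 0.0747 to 0.0913 CPM, which covers counting error only. Chi-square ratios of counts, in units of sampling noise, were 5.24 to 6.06 between KO samples, 9.94 between WT replicates 1 and 2, 24.46 and 25.1 between these and WT replicate 3, and 44.2 to 52.21 between genotypes, so no sample repeated another. The procedure was tested on simulated counts.

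The alternatives were DESeq2 1.42.0, RLE factors or library totals alone, no filter or at least 10 counts in every sample, adjusted p under 0.05 with no fold cutoff, glmTreat, per-sample offsets for GC content and length (splines with 5 degrees of freedom), the replicate number as a block, each sample left out and, for ratios, 1 added count. The count of members with an adjusted p under 0.1 and no fold cutoff was added after the data were seen. The 10 genes and the lists were chosen with earlier results of these data known. Named genes are the 10, all genes in the table of the lists of other receptors and ligands and of other Jak and STAT genes, the called genes of the other lists, and Zfp335. Of the list of STAT targets, those with an adjusted p under 0.1 and no call were named as well, after the data were seen. 1 gene of these lists is not reported here.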

Additional observations from a re-analysis of the deposited data

How the results depend on the processing

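The call of Il2rb, the 1 gene of the 10 called, depended on the fold cutoff. With library totals alone (log2 fold change 0.56), glmTreat (0.59, adjusted p = 0.859) and offsets for GC content and length (0.57) the number called was 0, and with adjusted p under 0.05 and no fold cutoff it was 2 (Il2rb and Il2rg). It was 0 to 1 with each sample left out, and the samples whose removal ended the call were WT replicates 1 and 2 and KO replicate 2, while Il2rb ranged from 0.45 to 0.85. The number with adjusted p under 0.1 and no fold cutoff (4, of which 3 higher and 1 lower) ranged from 1 to 6 with each sample left out, from 1 to 3 in the higher and from 0 to 3 in the lower direction. The lower number was 2 with library totals alone, with the offsets, and with the block and the offsets together. Each of the 3 KO samples left out took it to 0. The share of all genes with an adjusted p under 0.1 moved too. It was 47% with all samples, and ranged from 35.5% without KO replicate 1 to 57.9% without WT replicate 3. Over all genes, 3318 were called (1618 higher and 1700 lower), against 5244 (2610 and 2634) at adjusted p under 0.05 whatever the fold, 6390 (3089 and 3301) at adjusted p under 0.1 whatever the fold, and 1686 (941 and 745) with glmTreat.

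Replicate numbers are shared by the genotypes, but the deviations of same-numbered samples correlated by 0.073, 0.028 and -0.001, so the numbers did not pair them. With the replicate block 3190 genes were called, 3100 of them shared, Il2rb was called (0.63), Il2 was called (2.69), and 0 of the 10 genes were lower at adjusted p under 0.1. In either direction 3 of the 10 genes passed that cutoff, against 43.7% of all genes.

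The direction turned for several genes that were not called with all samples. Jak3 was 0.042 with the offsets and 0.044 with block and offsets, and with each sample left out it ranged from -0.093 to 0.005 (without WT replicate 1). Crlf2 was 0.126 with the offsets and 0.131 with block and offsets, and ranged from -0.152 to 0.046 (without WT replicate 3). Il7r was 0.030 with the block and ranged from -0.766 to 0.739, Il2ra from -0.206 to 0.077, and the ratio of Stat5a to Stat5b from 0.143 to -0.036, each turned by leaving out WT replicate 3. Il13ra1 ranged from -0.269 to 2.007 and was negative without WT replicate 1 (-0.123) or WT replicate 2 (-0.269). The causes were not tested. Counts of the 10 genes were high in every sample, so the spread between samples, and WT replicate 3 in particular for Il2ra, Il2rb and Il4ra, set the width of their intervals.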

Other observations

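WT replicate 3 differed from the other WT samples in some pathway genes, and those named here were chosen after their values were seen. Of 58 pathway genes in the table it was higher than the mean of WT replicates 1 and 2 by a log2 difference above 1 for 10 genes, 4 of which had a mean under 1 CPM in the other WT samples, and lower by more than 1 for 2 genes. Over all genes tested these shares were 6.14% and 6.55%. Il7r showed a difference of 2.22 and Irs2, an adaptor of IL-4 and insulin signaling, of 1.94 (75.7 CPM against 19.0 and 20.4 CPM). Feedback and target genes of STAT signaling were among those higher: Socs3 was at 246 CPM against 107 and 109 CPM, Socs2 at 136 CPM against 67.2 and 60.5 CPM, and Pim1, a kinase that supports survival, at 960 CPM against 434 and 407 CPM.

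For Socs3 the level of WT replicate 3 fell within the KO range of 238 to 249 CPM, and for Pim1 it lay above the KO range of 674 to 682 CPM. Il9r and Bcl6 were lower in WT replicate 3 than in the other WT samples, by log2 differences of -1.09 and -1.004, on the side of the KO samples. For Foxp3, in contrast, WT replicate 3 was the highest WT sample (0.79 above the others) and lay farther from the KO samples. The labels give no batch, age or sex that sets this sample apart, and the cause was not tested.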
